A study of Mus musculus with 12 samples.

Results

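The genes of the T cell receptor complex and its co-receptors were read in mouse liver by a list of 10 symbols: Cd3d, Cd3e, Cd3g, Cd247, Cd4, Cd8a, Cd8b1, Cd2, Lck and Zap70. A gene is read here from 1 probe set, the one whose mean over the 12 arrays is highest among those that carry a single gene symbol. Of the 10 genes, 9 have such a probe set and all 9 passed the filter on dim probe sets, out of 12760 genes tested. Lck is not analysed here. The arrays held liver RNA of BALB/c mice in 4 groups of 3 arrays. The group labelled IFNko TGFB1 KO lacks both transforming growth factor beta 1 (Tgfb1-/-) and interferon gamma (Ifng-/-), INFko TGFB+ lacks interferon gamma and keeps Tgfb1, TGFB KO is Tgfb1-/- with Ifng intact, and Balb/c WT is the wild type. The study concerns acute autoimmune hepatitis, and its design names the mice that keep Tgfb1 as Tgfb1+/+ littermates, whereas the label INFko TGFB+ gives no number of copies. The labels give no age, and no treatment is named.

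The T cell receptor is a pair of variable chains, alpha with beta or gamma with delta, that bind antigen but do not signal by themselves. They reach the cell surface together with the invariant CD3 chains (Cd3d, Cd3e, Cd3g) and the zeta chain (Cd247), whose phosphorylated tails recruit the kinase ZAP-70 after Lck has acted on them. CD4 and CD8 bind MHC class II and class I and bring Lck to the receptor, so they divide helper from cytotoxic T cells, and CD2 is an adhesion receptor of T and NK cells. TGF-beta1 restrains lymphocyte activation, and T cells gather in the liver in autoimmune hepatitis.

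The sequences upstream of the signalling chains of the receptor, the CD3 chains and the zeta chain, are shown first, since these chains make up the complex. Of the 10 genes, 5 have a single entry in the RefSeq promoter table (GRCm38.p6), namely Cd3d, Cd3e, Cd3g, Cd247 and Cd8a. The 250 bases before the start are printed 5′ to 3′ on the gene's strand. Capitals mark the E-box letters CACCTG, which the other strand reads as CAGGTG, a motif of E proteins, and the ETS letters AGGAAG, which the other strand reads as CTTCCT.
Cd3g, chr9:44980432-44980681, minus strand: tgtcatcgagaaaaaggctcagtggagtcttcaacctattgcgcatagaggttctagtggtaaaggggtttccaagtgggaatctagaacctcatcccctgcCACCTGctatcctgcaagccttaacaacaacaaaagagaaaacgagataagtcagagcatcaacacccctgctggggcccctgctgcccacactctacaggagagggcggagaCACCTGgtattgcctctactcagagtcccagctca
Cd3d, chr9:44981536-44981785, plus strand: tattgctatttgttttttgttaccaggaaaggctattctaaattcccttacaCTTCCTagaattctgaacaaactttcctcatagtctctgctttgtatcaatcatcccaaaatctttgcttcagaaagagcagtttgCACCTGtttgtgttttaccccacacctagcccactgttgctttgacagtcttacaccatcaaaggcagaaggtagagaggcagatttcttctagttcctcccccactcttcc
Cd3e, chr9:45009612-45009861, minus strand: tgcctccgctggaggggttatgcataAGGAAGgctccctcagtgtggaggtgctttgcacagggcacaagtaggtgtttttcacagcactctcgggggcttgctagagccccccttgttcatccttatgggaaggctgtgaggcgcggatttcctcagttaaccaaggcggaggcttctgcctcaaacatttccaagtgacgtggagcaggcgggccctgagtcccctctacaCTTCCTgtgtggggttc
Cd247, chr1:165788431-165788680, plus strand: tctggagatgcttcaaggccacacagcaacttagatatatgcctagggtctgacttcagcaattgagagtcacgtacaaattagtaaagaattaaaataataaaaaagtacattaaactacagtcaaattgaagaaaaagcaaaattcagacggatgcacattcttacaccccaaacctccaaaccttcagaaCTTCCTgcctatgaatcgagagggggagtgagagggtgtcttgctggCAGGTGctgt
The 3 CD3 genes lie together on chromosome 9. Cd3g and Cd3d are transcribed away from each other, and 854 bases separate the windows printed for them. The E-box letters occurred 2 times upstream of Cd3g and 1 time each upstream of Cd3d and Cd247, and not in this window of Cd3e. The ETS letters occurred 2 times upstream of Cd3e and 1 time each upstream of Cd3d and Cd247. On either strand, 17.2% of 32851 promoter windows of the same length hold the E-box letters and 29.5% hold the ETS letters. Another motif, the RUNX letters TGTGGT, which the other strand reads as ACCACA, is in 14% of all windows and in none of these 4, and the window of Cd8a holds none of the 3 motifs. The 3 motifs do not overlap one another in the printed windows, and a match is a string of letters, not a measured binding site.

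The arrays were checked before the genes were compared. The median signal of IFNko TGFB1 KO 1 was 61.3, and that of the other 11 arrays lay between 33.8 and 42.6. The counts and fold changes that use it are also given without it, the pathway and marker lists by counts and by the named genes whose calls were lost. The Tgfb1 probe set averaged 40.2 ± 13.9 in IFNko TGFB1 KO and 188 ± 29.5 in INFko TGFB+, and 68.1 ± 21.2 in TGFB KO and 319 ± 184 in Balb/c WT (signal, SD, n = 3). The Ifng probe set averaged 60.9 ± 20.5 in IFNko TGFB1 KO and 5.36 ± 3.72 in INFko TGFB+, and 127 ± 64.5 in TGFB KO and 18.4 ± 10.8 in Balb/c WT. Whether that probe set lies in the disrupted part of Ifng is not given in the sources used here. It therefore checks the label neither way.

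**Figure D1:**
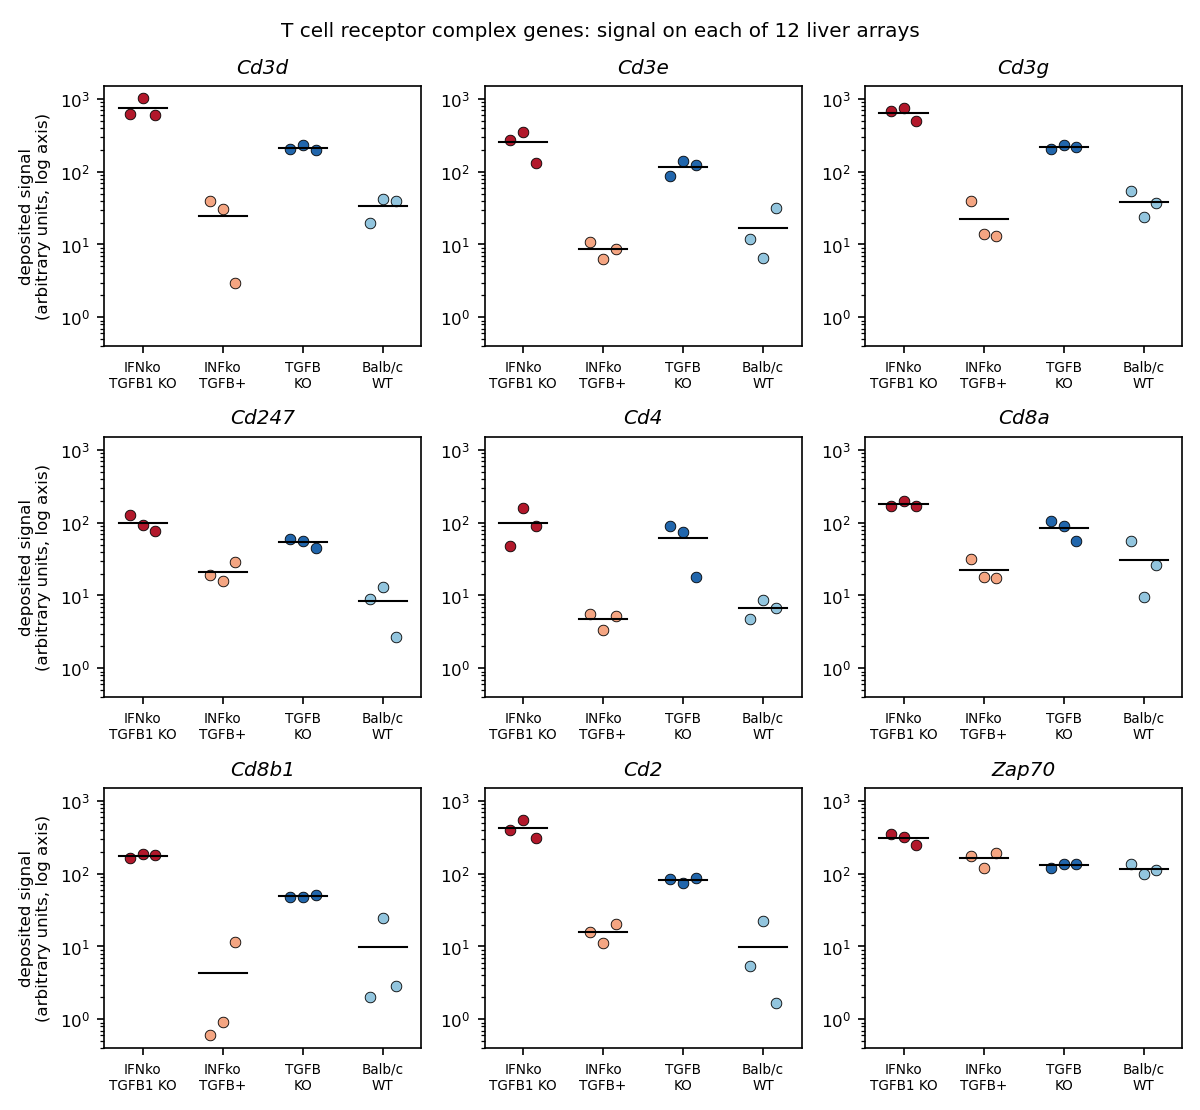
Deposited signal of each gene (vertical log axis, arbitrary units scaled per array) on every array, with 3 arrays per group and a line at the group mean. In 8 of the 9 genes all TGFB KO arrays lie above all Balb/c WT arrays, and in 9 of 9 all IFNko TGFB1 KO arrays lie above all INFko TGFB+ arrays.

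The receptor complex was higher in both groups that lack Tgfb1. In TGFB KO against Balb/c WT, which asks for the effect of Tgfb1 loss in mice with intact Ifng, 8 of the 9 genes rose and none fell, with Zap70 the exception. In IFNko TGFB1 KO against INFko TGFB+, which asks the same on the Ifng-deficient background, 9 of 9 passed upward on the brightest probe set. For Zap70 among them the probe sets disagree, and no direction is given for that gene. Across all genes tested, 12.2% rose and 11.9% fell in the first comparison and 12.7% rose and 13.1% fell in the second (limma, adjusted p under 0.05, Benjamini-Hochberg over 12760 genes). The median log2 fold change of the 9 genes was 1.62 in TGFB KO and 3.14 in IFNko TGFB1 KO, beside -0.06 and -0.01 over all genes tested. All arrays of the Tgfb1-deficient group lay above all arrays of the other group for 8 of 9 genes in the first comparison, beside 18.4% of all genes, and for 9 of 9 in the second, beside 22.2%. In whole liver, more T cells and more RNA per T cell cannot be told apart. Cd3e, Cd247, Cd4, Cd8b1 and Cd2 passed the filter only through the Tgfb1-deficient arrays, since their mean log2 level over the other 6 arrays, between 4.47 and 4.93, lies under the limit of 5.25, so the share that rose is not independent of the filter. Without INFko TGFB+ 2 Zap70 missed the threshold (log2 fold change 0.62). Without IFNko TGFB1 KO 1 the count in the second comparison was again 9 of 9. The log2 fold changes were then 4.45 for Cd3d, 3.19 for Cd3e, 4.08 for Cd3g, 1.30 for Cd247, 2.60 for Cd4, 2.27 for Cd8a, 3.24 for Cd8b1, 3.73 for Cd2 and 0.67 for Zap70, with adjusted p between 4.91e-05 and 0.0469 (limma).

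The CD3 chains, which carry the signal of the receptor into the cell, had the largest fold changes of the list together with Cd2 when 16 was added to each signal. This order depends on the number added. With 1 added, Cd8b1 (5.41) came before Cd3d (5.31) in IFNko TGFB1 KO against INFko TGFB+, and in TGFB KO against Balb/c WT Cd3d (2.68) and Cd3g (2.54) came after Cd2 (3.55), Cd3e (3.02), Cd8b1 (2.995), Cd247 (2.83) and Cd4 (2.78). Cd3g had signals of 208, 230.5 and 216 in TGFB KO against 54.0, 23.7 and 36.8 in Balb/c WT, and of 676, 753 and 501 in IFNko TGFB1 KO against 39.4, 14.1 and 12.9 in INFko TGFB+. The TGFB KO arrays lay close together, and neither pair of groups overlapped. On the log2(signal + 16) scale, which understates changes of dim probe sets, Cd3g rose by 2.13 ± 0.28 in TGFB KO (standard error, adjusted p = 0.000299, limma) and by 4.14 ± 0.28 in IFNko TGFB1 KO (adjusted p = 7e-06).

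Cd3d had signals of 204, 230.3 and 198 in TGFB KO against 19.8, 42.4 and 39.9 in Balb/c WT. Its signals were 615, 1037 and 591 in IFNko TGFB1 KO, against 39.99, 30.8 and 2.92 in INFko TGFB+. The highest INFko TGFB+ array and the highest Balb/c WT array were alike, and the widest spread among the low arrays came from INFko TGFB+ 3. Cd3d rose by 2.19 ± 0.39 in TGFB KO (adjusted p = 0.00216, limma) and by 4.32 ± 0.39 in IFNko TGFB1 KO (adjusted p = 4.02e-05).

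Cd3e had signals of 86.9, 139 and 124 in TGFB KO against 11.9, 6.44 and 31.8 in Balb/c WT. Its signals were 274, 355 and 133 in IFNko TGFB1 KO, against 10.98, 6.23 and 8.66 in INFko TGFB+. The lowest IFNko TGFB1 KO array fell inside the range of the TGFB KO arrays. Its log2 fold changes were 2.09 ± 0.35 (adjusted p = 0.0014) in TGFB KO and 3.28 ± 0.35 (adjusted p = 0.000107, limma) in IFNko TGFB1 KO.

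The zeta chain gene Cd247, which holds most of the phosphorylation motifs of the complex and is also used by NK cell receptors, had signals of 60.3, 56.7 and 44.8 in TGFB KO against 8.97, 13.2 and 2.71 in Balb/c WT. It had 128, 93.3 and 77.1 in IFNko TGFB1 KO against 18.9, 15.8 and 28.6 in INFko TGFB+. Its 2 log2 fold changes were close, 1.60 ± 0.20 in TGFB KO (adjusted p = 0.000223) and 1.40 ± 0.20 in IFNko TGFB1 KO (adjusted p = 0.000653, limma). Of the 4 Cd247 probe sets, 2 were under the filter and had values from -0.76 to 0.34 in these comparisons. The third gave 0.57 (adjusted p = 0.388) and 1.198 (adjusted p = 0.0631) in limma over 27022 probe sets, so 1 of the 2 tested Cd247 probe sets rose. This probe set was under the filter without IFNko TGFB1 KO 1.

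**Figure D2:**
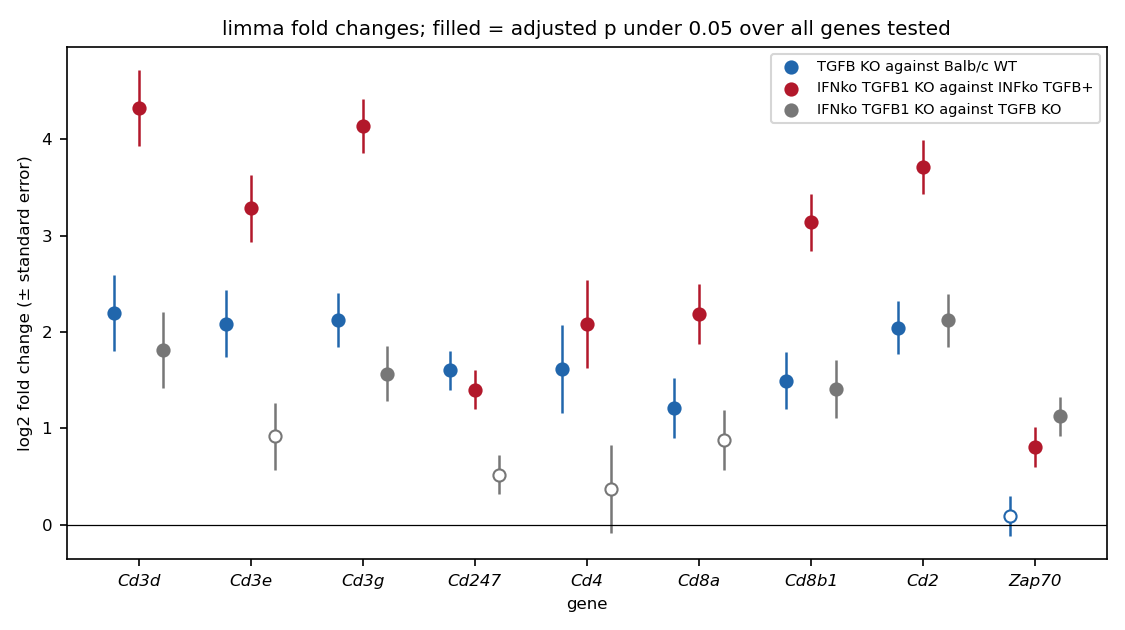
Log2 fold change with its standard error (vertical axis) for the 9 genes (horizontal axis) in 3 comparisons of 3 against 3 arrays, filled where the adjusted p was under 0.05. Cd3d, Cd3g and Cd2 reach values between 3.71 and 4.32 in IFNko TGFB1 KO against INFko TGFB+, and Zap70 is the open point near 0 in TGFB KO against Balb/c WT.

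The variable chains that the CD3 chains accompany are named on the array mostly by V segments, and a probe set so named may match several receptor transcripts. There were 17 receptor chain probe sets with 1 symbol, of 10 symbols, and 16 of them carry the name of a V segment and 1 is named Tcra. Of the 17, 6 passed the filter, and 4 rose in both comparisons (Trbv1 and 3 probe sets of Trav9d-3). In the fit over 27022 probe sets, 8.8% rose and 7.58% fell in TGFB KO, and 8.53% rose and 8.98% fell in IFNko TGFB1 KO. The beta chain probe set Trbv1 had signals of 406, 417 and 417 in TGFB KO against 64.2, 44.4 and 48.2 in Balb/c WT, and of 982, 1305 and 1158 in IFNko TGFB1 KO against 66.4, 52.5 and 30.6 in INFko TGFB+. It rose by 2.61 ± 0.21 and 4.19 ± 0.21 in limma over 27022 probe sets, with adjusted p = 1.31e-05 and 8.52e-07. The brightest probe set of Trav9d-3, an alpha chain name, rose by 2.87 ± 0.22 in TGFB KO and 4.72 ± 0.22 in IFNko TGFB1 KO (adjusted p = 9.1e-06 and 6.4e-07). The 2 tested probe sets of the gamma chain gene Trgv4 did not pass in either comparison. Their values were 0.67 and 0.48 in TGFB KO, and 0.19 and -0.47 in IFNko TGFB1 KO, with adjusted p between 0.257 and 0.82. Without IFNko TGFB1 KO 1, 7 receptor chain probe sets were tested in IFNko TGFB1 KO against INFko TGFB+ and the same number, 4, rose (Trbv1 by 4.29 and the brightest of Trav9d-3 by 4.72).

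The co-receptor genes rose too. Cd4, which marks helper T cells and is found on some dendritic cells, had signals of 89.2, 74.8 and 17.9 in TGFB KO against 4.81, 8.60 and 6.68 in Balb/c WT. It had 47.6, 159 and 89.6 in IFNko TGFB1 KO against 5.57, 3.33 and 5.22 in INFko TGFB+. Its spread within both Tgfb1-deficient groups was wide, with TGFB KO 3 far below the other arrays of its group. Cd4 rose by 1.62 ± 0.46 in TGFB KO (adjusted p = 0.0237) and by 2.08 ± 0.46 in IFNko TGFB1 KO (adjusted p = 0.00626, limma). The call in TGFB KO was lost without TGFB KO 1 (log2 fold change 1.32), TGFB KO 2 (1.42), or any one of the Balb/c WT arrays (1.53, 1.69 and 1.65), with adjusted p of at most 0.0969. The other Cd4 probe set was under the filter, with values of 0.56 in TGFB KO and 1.12 in IFNko TGFB1 KO. Its signals in IFNko TGFB1 KO were 142.9, 13.2 and 9.97, highest on IFNko TGFB1 KO 1. The rise of Cd4 thus rests on 1 probe set.

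Cd8a, the chain shared by both forms of CD8, had signals of 107, 89.8 and 56.2 in TGFB KO against 55.2, 9.65 and 26.3 in Balb/c WT. It had 171, 199.8 and 169 in IFNko TGFB1 KO against 31.5, 18.0 and 17.3 in INFko TGFB+. The lowest TGFB KO array lay just above the highest Balb/c WT array. Cd8a rose by 1.22 ± 0.31 in TGFB KO (adjusted p = 0.0152) and by 2.19 ± 0.31 in IFNko TGFB1 KO (adjusted p = 0.000609, limma). Without TGFB KO 1 the value was 1.06 and missed the threshold (adjusted p = 0.0642).

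Cd8b1, the beta chain found on conventional cytotoxic T cells, had signals of 47.8, 47.9 and 51.4 in TGFB KO against 2.01, 24.6 and 2.86 in Balb/c WT. It had 162, 188 and 182 in IFNko TGFB1 KO against 0.61, 0.93 and 11.6 in INFko TGFB+. Both Tgfb1-deficient groups were tight. Cd8b1 rose by 1.497 ± 0.299 in TGFB KO (adjusted p = 0.00401) and by 3.14 ± 0.30 in IFNko TGFB1 KO (adjusted p = 5.53e-05, limma).

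CD8 was set against CD4 within each array, as the log2 level of Cd8a or Cd8b1 minus that of Cd4. The difference itself compares 2 probe sets and has no meaning as a level, so only its change between groups was read. In the arrays that keep Tgfb1, Cd4 was dim, with mean signals of 4.71 in INFko TGFB+ and 6.70 in Balb/c WT. Cd8b1 was dim there too, with means of 4.37 and 9.82. The differences in those arrays, and so the changes, depend on the number added to each signal, as the alternatives given last show. Cd8a minus Cd4 was 1.91, 0.30 and 0.81 in IFNko TGFB1 KO and 1.17, 0.88 and 0.66 in INFko TGFB+. It was 0.21, 0.20 and 1.08 in TGFB KO and 1.76, 0.06 and 0.88 in Balb/c WT. The groups overlapped in both pairs. The mean change with loss of Tgfb1 was -0.15 (exact permutation test within each Ifng background, two-sided p = 0.675, adjusted p = 0.9 over 10 ratio tests, smallest possible p 0.005). It was -0.36 without IFNko TGFB1 KO 1 (exact permutation p = 0.265).

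Cd8b1 minus Cd4 was 1.80, 0.22 and 0.92 in IFNko TGFB1 KO and -0.38, -0.21 and 0.38 in INFko TGFB+. It was -0.70, -0.47 and 0.99 in TGFB KO and -0.18, 0.67 and -0.30 in Balb/c WT. The mean change was 0.47 (exact permutation test, two-sided p = 0.3, adjusted p = 0.9), 0.26 without IFNko TGFB1 KO 1 and 0.21 without TGFB KO 3 (exact permutation p = 0.5 and 0.645). The largest change of a single pair was 1.06 for Cd8b1 minus Cd4, which averaged 0.98 ± 0.79 in IFNko TGFB1 KO and -0.07 ± 0.40 in INFko TGFB+ (SD, n = 3, exact p = 0.2, where 3 against 3 arrays cannot go below 0.1). Without IFNko TGFB1 KO 1 this pair changed by 0.64 (exact p = 0.3). No shift between CD8 and CD4 was detectable. The spread of Cd4 within the Tgfb1-deficient groups was wide (SD of its log2 level 0.93 in IFNko TGFB1 KO and 0.87 in TGFB KO). Cd4 and Cd8b1 were also dim in the arrays that keep Tgfb1. The result therefore does not show that the ratio was equal.

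The CD8 to CD4 comparison turned with the probe set. With the other Cd4 probe set, which is under the filter, Cd8b1 minus Cd4 changed by 1.48 (exact permutation test, p = 0.025 before adjustment). Over the 10 pairs of 5 Cd8a and 2 Cd4 probe sets, the change of Cd8a minus Cd4 ran from -1.92 to 0.96. Of these 10, 3 had an exact permutation p under 0.05 before adjustment, all with a lower Cd8a minus Cd4 in the Tgfb1-deficient arrays (-1.92, -1.06 and -0.91, p = 0.005, 0.03 and 0.02). The first and the last of these use a Cd8a probe set under the filter. After leaving out IFNko TGFB1 KO 1, the 10 values ran from -2.18 to 1.29. The pairs with an exact permutation p under 0.05 before adjustment then went both ways. Lower were -2.18, -1.36 and -0.53 (exact permutation p = 0.005, 0.02 and 0.035). Higher, with the other Cd4 probe set, were 1.29 and 1.24 (exact permutation p = 0.02 and 0.025). Cd8b1 minus that other Cd4 probe set then changed by 1.91 (exact permutation p = 0.01 before adjustment). The Cd8a probe sets themselves disagreed in size. Of the 4 past the filter, 2 rose in TGFB KO (1.22 and 1.41) and 3 in IFNko TGFB1 KO (2.19, 2.18 and 2.78), and the remaining values were 0.66 and 0.80 in TGFB KO and 0.92 in IFNko TGFB1 KO. The same 3 rose in IFNko TGFB1 KO without IFNko TGFB1 KO 1 (2.27, 2.00 and 2.30).

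**Figure D3:**
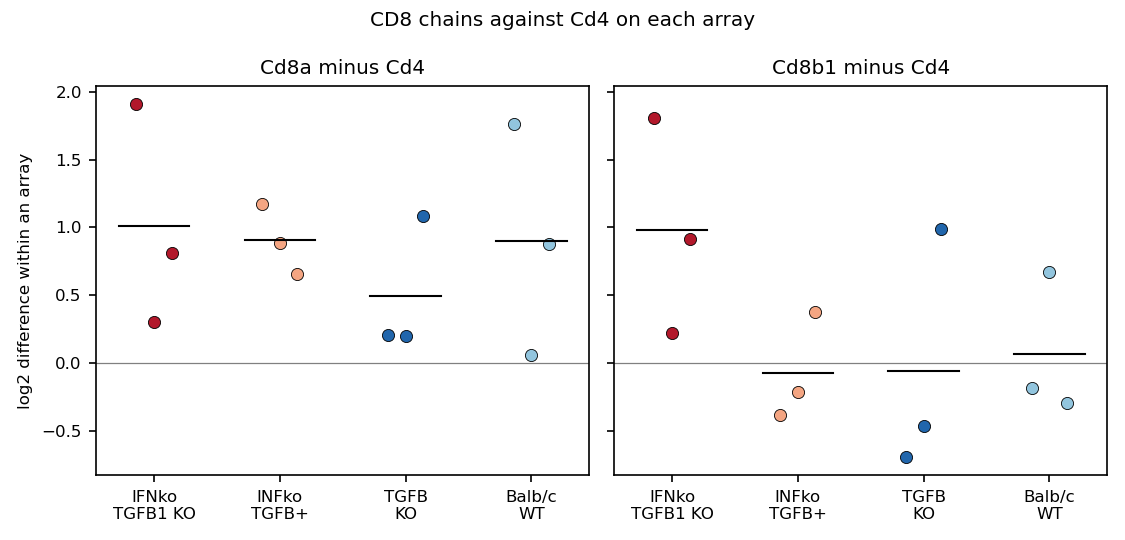
Log2 level of Cd8a (left) or Cd8b1 (right) minus that of Cd4 on each array (vertical axis), with 3 arrays per group and a line at the group mean. The groups overlap in both panels, and Cd8b1 minus Cd4 is spread from 0.22 to 1.80 in IFNko TGFB1 KO and from -0.38 to 0.38 in INFko TGFB+.

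Cd2, the adhesion receptor, had fold changes near those of the CD3 chains. It had signals of 84.3, 75.2 and 85.9 in TGFB KO against 5.36, 22.3 and 1.66 in Balb/c WT, and of 403, 547 and 313 in IFNko TGFB1 KO against 15.7, 11.02 and 20.1 in INFko TGFB+. Neither pair overlapped, and the IFNko TGFB1 KO arrays lay well above the TGFB KO arrays. Cd2 rose by 2.04 ± 0.28 in TGFB KO (adjusted p = 0.000335) and by 3.71 ± 0.28 in IFNko TGFB1 KO (adjusted p = 1.15e-05, limma).

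The kinase gene Zap70, whose product is shared by T and NK cells, moved least. Its signals were 119, 137 and 138 in TGFB KO against 135, 97.7 and 113 in Balb/c WT, and 355, 314 and 248 in IFNko TGFB1 KO against 174, 121 and 195 in INFko TGFB+. The first pair overlapped and the second did not. Its log2 fold change was 0.09 ± 0.21 in TGFB KO (adjusted p = 0.796), and 0.81 ± 0.21 in IFNko TGFB1 KO (adjusted p = 0.014, limma), on the brightest of its probe sets.

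The 3 Zap70 probe sets went different ways. A second one, which the array table gives no accession, had signals of 39.1, 69.6 and 167 in TGFB KO against 231, 163 and 208 in Balb/c WT, and of 51.1, 21.6 and 74.4 in IFNko TGFB1 KO against 119, 139.6 and 139.8 in INFko TGFB+. It fell in IFNko TGFB1 KO, with a value of -1.48 on the log2 scale (adjusted p = 0.0229, limma over 27022 probe sets), and had -1.19 ± 0.39 in TGFB KO (adjusted p = 0.0589). When IFNko TGFB1 KO 1 was left out, the value in IFNko TGFB1 KO was -1.39 and missed the threshold (adjusted p = 0.0628). The third gave -0.67 (adjusted p = 0.132) in TGFB KO and 0.62 (adjusted p = 0.158) in IFNko TGFB1 KO. Averaged over its probe sets, Zap70 changed by -0.59 in TGFB KO (adjusted p = 0.0465) and by -0.015 in IFNko TGFB1 KO (adjusted p = 0.965), so no direction is given for the gene in either comparison.

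**Figure D4:**
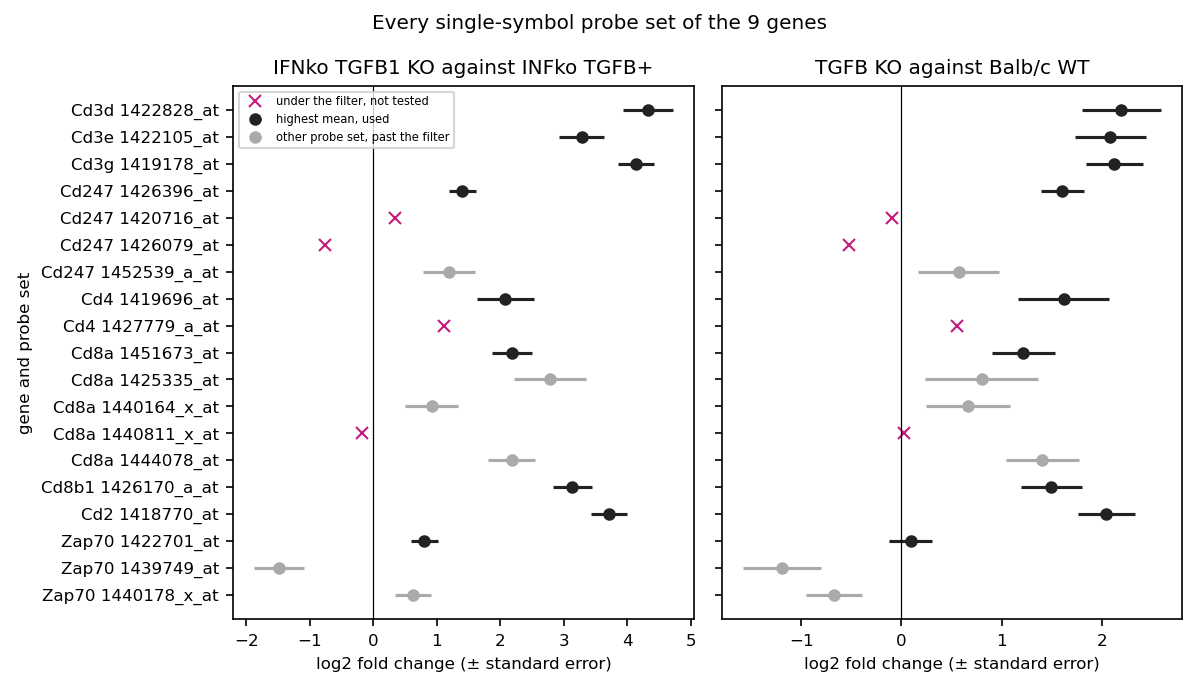
Log2 fold change (horizontal axis) of every probe set with 1 symbol for the 9 genes, in IFNko TGFB1 KO against INFko TGFB+ (left) and TGFB KO against Balb/c WT (right), with standard errors from the fit over 27022 probe sets and crosses for probe sets under the filter. The probe sets of Zap70 lie on both sides of 0, and those of Cd247 and Cd8a differ in size.

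The effect of Tgfb1 loss was then compared between the 2 Ifng backgrounds, by the difference of the log2 fold changes (Ifng-deficient minus Ifng-intact). Of the 9 genes, 1 was past the threshold, where 0.243% of all genes were past it upward and 0.627% downward. This was Cd3g, with a difference of 2.01 ± 0.40 (adjusted p = 0.0416, limma). Cd3d (2.13 ± 0.56, adjusted p = 0.132), Cd2 (1.67 ± 0.39, adjusted p = 0.0846) and Cd8b1 (1.64 ± 0.42, adjusted p = 0.125) had values of similar size that missed it. Cd3e, Cd8a, Zap70 and Cd4 lay between 0.46 and 1.198 with adjusted p between 0.363 and 0.837, and Cd247 was at -0.20 (adjusted p = 0.846). The call of Cd3g did not hold without IFNko TGFB1 KO 1 (1.92), when 0 of the 9 genes passed, and it was lost in 13 of 21 alternatives, among them any one of 9 left-out arrays. Over the 21 its value ran from 1.61 to 2.34 and its adjusted p from 0.0046 to 0.141 (limma). At the probe set level, 2 receptor chain probe sets passed, Trav9d-3 with 1.85 ± 0.31 (adjusted p = 0.0228) and Trbv1 with 1.58 ± 0.30 (adjusted p = 0.0467), where 0.0962% of probe sets were past the threshold upward. In the fit over probe sets neither passed without IFNko TGFB1 KO 1 (1.79 and 1.64, adjusted p = 0.0558 and 0.0784). In the fit over genes without that array they passed, with the same values (adjusted p = 0.0358 and 0.0469, limma). Without that array the values of Cd3d, Cd2 and Cd8b1 were 2.22, 1.68 and 1.755, with adjusted p between 0.14 and 0.165.

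In IFNko TGFB1 KO against TGFB KO, which differ in Ifng and share the loss of Tgfb1, 5 of the 9 genes passed upward and none downward on the brightest probe set, beside 2.54% up and 2.82% down over all genes tested. These values share arrays with both earlier comparisons and are not separate evidence. Cd2 rose by 2.12 ± 0.28 (adjusted p = 0.00113), Cd3d by 1.81 ± 0.39 (adjusted p = 0.0228) and Cd3g by 1.57 ± 0.28 (adjusted p = 0.00857, limma). Cd8b1 rose by 1.41 ± 0.30 (adjusted p = 0.0206), and the brightest probe set of Zap70 by 1.12 ± 0.21 (adjusted p = 0.00992). The other Zap70 probe sets gave 1.21 (adjusted p = 0.045) and -0.81 (adjusted p = 0.326, limma over 27022 probe sets). The others had smaller values that missed the threshold, namely Cd3e 0.92 (adjusted p = 0.163), Cd8a 0.88 (adjusted p = 0.136), Cd247 0.52 (adjusted p = 0.173) and Cd4 0.37 (adjusted p = 0.694).

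All IFNko TGFB1 KO arrays lay above all TGFB KO arrays for 7 of the 9 genes, where 13.2% of all genes did so, and Cd3e and Cd4 overlapped. The count was again 5 of 9 without IFNko TGFB1 KO 1 (Cd2 2.135, Cd3d 1.91, Cd3g 1.48, Cd8b1 1.535 and Zap70 0.99, adjusted p between 0.00454 and 0.0466), and 3 of 9 without any one of the TGFB KO arrays, when Cd3d and Cd8b1 missed the threshold. Cd3d also missed it without IFNko TGFB1 KO 2 (1.57). Without IFNko TGFB1 KO 3 Cd8b1 missed it (1.34) and Cd3e passed it (1.30). Of the receptor chain probe sets, 3 of 6 rose, Trav9d-3 by 1.68 ± 0.22 and 1.60 ± 0.32 and Trbv1 by 1.56 ± 0.21 (adjusted p = 0.00158, 0.022 and 0.00219, limma), beside 0.992% of all probe sets. With IFNko TGFB1 KO 1 left out, there were 2, Trav9d-3 (1.62) and Trbv1 (1.615), and the second Trav9d-3 probe set missed the threshold (1.42, adjusted p = 0.0747).

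In INFko TGFB+ against Balb/c WT, which differ in Ifng and keep Tgfb1, 0 of the 9 genes and 0 of all 12760 genes passed limma's test (0% up and 0% down). At an unadjusted p under 0.05, 650 genes (5.09%) passed. The log2 fold changes of the receptor genes ran from -0.45 for Cd3g to 0.72 for Cd247. Cd247 alone among them was under 0.05 before adjustment, and not after it (adjusted p = 0.91, limma).

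**Figure D5:**
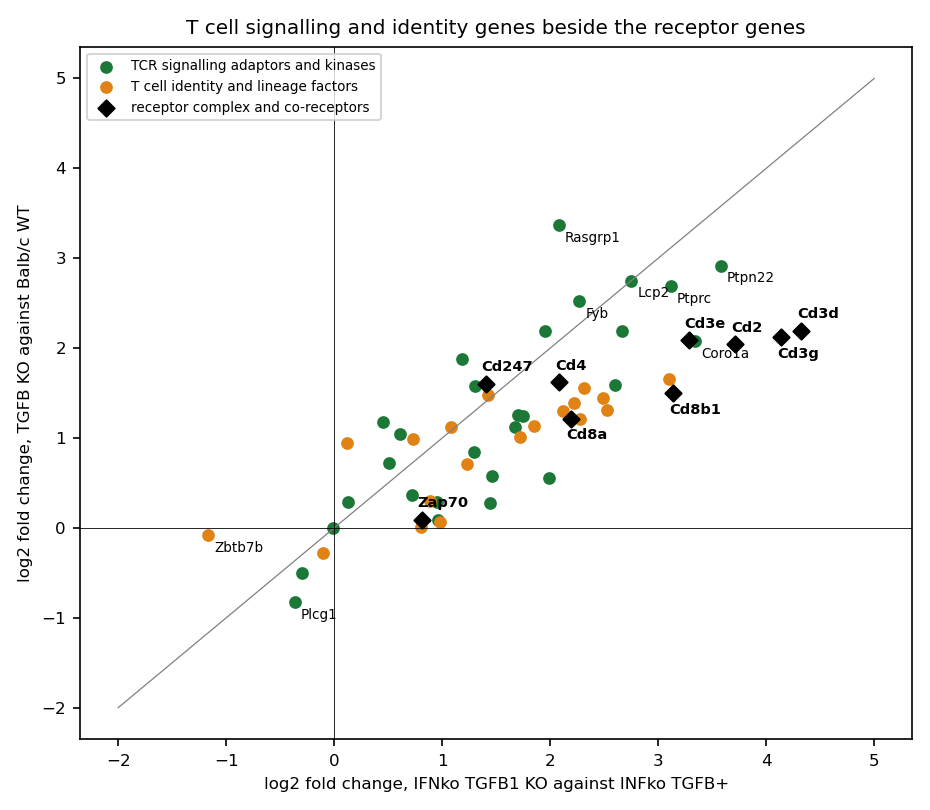
Log2 fold change in IFNko TGFB1 KO against INFko TGFB+ (horizontal axis) and in TGFB KO against Balb/c WT (vertical axis) for 28 T cell receptor signalling genes, 19 T cell identity genes and the 9 receptor genes (diamonds), with a line of equal values. Cd3d, Cd3g, Cd2, Cd3e and Cd8b1 lie right of the line, and Cd247 lies on the left of it.

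The genes that act downstream of the receptor were followed in a list of 34 signalling adaptors, kinases and phosphatases, of which 28 were tested. In TGFB KO 16 rose and 2 fell, with a median of 1.15, and in IFNko TGFB1 KO 19 rose and none fell, with a median of 1.45, beside the 12.2% and 12.7% of all genes that rose and medians of -0.06 and -0.01. Of the 28, 5 (Themis, Tespa1, Sh2d2a, Cd6 and Ptpn22) passed the filter only through the Tgfb1-deficient arrays, so these counts and medians are not independent of the filter. After leaving out IFNko TGFB1 KO 1, the count in IFNko TGFB1 KO was 20 of 28, with a median of 1.39. Tespa1, which had passed there (1.44, adjusted p = 0.0422), then missed the threshold (1.175, adjusted p = 0.124, limma). The smallest p-values in TGFB KO belonged to Lcp2 (2.75 ± 0.20), the adaptor SLP-76, to Fyb (2.52 ± 0.20), an adaptor that joins it, to the phosphatase gene Ptpn6 (1.88 ± 0.16), to Ptprc (2.69 ± 0.25), which encodes the leukocyte phosphatase CD45, and to Rasgrp1 (3.37 ± 0.32), an activator of Ras (adjusted p between 4.77e-06 and 2.62e-05, limma). In IFNko TGFB1 KO they belonged to Lcp2 (2.75 ± 0.20), Ptprc (3.11 ± 0.25), the phosphatase gene Ptpn22 (3.58 ± 0.31), Fyb (2.27 ± 0.20) and Coro1a (3.34 ± 0.35), an actin regulator of leukocytes (adjusted p between 8.32e-06 and 9.49e-05). Several of these, such as Ptprc, Ptpn6, Coro1a and Lcp2, are also expressed by macrophages and other leukocytes. Lat, the membrane adaptor phosphorylated by ZAP-70, rose by 2.19 ± 0.38 in TGFB KO (adjusted p = 0.00174) and by 2.67 ± 0.38 in IFNko TGFB1 KO (adjusted p = 0.000593). Lat was picked for its role after its values were seen. None of the 28 passed in the difference of effects. Cd5 (1.32 ± 0.27, adjusted p = 0.016) and Skap1 (0.98 ± 0.23, adjusted p = 0.0297, limma) rose in IFNko TGFB1 KO against TGFB KO, beside 2.54% of all genes. When IFNko TGFB1 KO 1 was left out, Cd5 passed (1.32, adjusted p = 0.0436) and Skap1 missed the threshold (0.96, adjusted p = 0.0799).

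Of 28 T cell identity and lineage factors, 19 were tested. In TGFB KO 12 rose and none fell, with a median of 1.12, and in IFNko TGFB1 KO 13 rose and 1 fell, with a median of 1.42. Of all genes tested, 12.2% rose and 11.9% fell in the first comparison, and 12.7% rose and 13.1% fell in the second. Of the 19, 7 (Bcl11b, Runx3, Tbx21, Eomes, Ikzf3, Cd27 and Cd28) passed the filter only through the Tgfb1-deficient arrays, so the same limit holds. With IFNko TGFB1 KO 1 left out, 14 rose and none fell in IFNko TGFB1 KO, with a median of 1.51, and Bcl11b was under the filter. The smallest p-values in TGFB KO belonged to Id2 (1.48 ± 0.27), the co-stimulatory receptor gene Cd28 (1.30 ± 0.25), Ikzf1 (1.13 ± 0.23), the interleukin receptor gene Il2rb (1.55 ± 0.33) and the co-stimulatory gene Cd27 (1.31 ± 0.30), with adjusted p between 0.00234 and 0.00825 (limma). In IFNko TGFB1 KO they belonged to Cd28 (2.12 ± 0.25), Cd27 (2.53 ± 0.30), Ikzf1 (1.85 ± 0.23), the T lineage factor gene Bcl11b (2.28 ± 0.29) and Thy1 (3.10 ± 0.43), with adjusted p between 0.0002 and 0.000537. The 1 gene that fell, Zbtb7b (-1.17 ± 0.39, adjusted p = 0.0446, limma), encodes the factor that directs the CD4 lineage. The call of Zbtb7b was lost without IFNko TGFB1 KO 1 (-0.73, adjusted p = 0.135). The signal of Zbtb7b averaged 120.0 ± 45.2 in IFNko TGFB1 KO and 230.2 ± 5.51 in INFko TGFB+ (SD, n = 3). Cd4 averaged 4.71 in INFko TGFB+, so the Zbtb7b signal is not read as that of CD4 T cells. Runx3, a factor of the CD8 lineage, rose in TGFB KO (1.12 ± 0.37, adjusted p = 0.0483) and had 1.08 ± 0.37 in IFNko TGFB1 KO (adjusted p = 0.053), where without IFNko TGFB1 KO 1 it passed (1.51, adjusted p = 0.00616). Both lineage factors were named after their values were seen, for their bearing on CD4 and CD8.

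Most tested markers of NK cells and all of macrophages and Kupffer cells also rose in both TGFB comparisons, while most markers of the other lists did not. Of 11 measured NK cell markers 6 were tested, and 5 rose in TGFB KO and 4 in IFNko TGFB1 KO, beside 12.2% and 12.7% of all genes. The lectin receptor genes Klrk1 (2.12 and 2.11), Klrc1 (1.79 and 2.125) and Klrd1 (0.695 and 2.15), which NK cells and some activated T cells express, rose in TGFB KO and in IFNko TGFB1 KO, with adjusted p between 0.0001 and 0.0439 (limma). Tyrobp rose by 2.69 and 2.68, and Cd244a rose in TGFB KO (1.26, adjusted p = 0.0374). Klrc1 and Cd244a passed the filter only through the Tgfb1-deficient arrays. The summed signal of the 11 measured NK cell markers was 4282 to 6106 in TGFB KO against 771 to 1007 in Balb/c WT. It was 3510 to 5108 in IFNko TGFB1 KO against 707 to 843 in INFko TGFB+. Tyrobp, an adaptor gene that myeloid cells share, gave 3603 to 5429 of this signal in TGFB KO against 567 to 766 in Balb/c WT, and 2848 to 4354 in IFNko TGFB1 KO against 511 to 673 in INFko TGFB+. The defining NK receptor gene Ncr1 was under the filter, with a mean signal of 32.1 ± 2.24 in TGFB KO and 28.4 ± 26.7 in Balb/c WT, and 11.4 ± 8.30 in IFNko TGFB1 KO and 22.7 ± 9.78 in INFko TGFB+.

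All 10 macrophage and Kupffer cell markers rose in both comparisons, and their summed signal was 40410 to 44290 in TGFB KO against 6485 to 8580 in Balb/c WT and 29880 to 40970 in IFNko TGFB1 KO against 6696 to 6791 in INFko TGFB+. These counts stand beside the 12.2% and 12.7% of all genes that rose. In IFNko TGFB1 KO against TGFB KO, where 2.54% of all genes rose, none of the 10 passed. Of the 6 NK cell markers 1 did (Klrd1, 1.22 ± 0.23, adjusted p = 0.01, limma). After leaving out IFNko TGFB1 KO 1, the counts of NK cell markers that rose were again 4 and 1, and those of macrophage markers 10 and 0. The part of NK and myeloid cells in the results for Cd247, Cd2, Cd4 and Zap70 was not tested.

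The other lists are given by their counts. Of all genes tested, 12.2% rose and 11.9% fell in TGFB KO, and 12.7% rose and 13.1% fell in IFNko TGFB1 KO. With lists this short, 1 or 2 markers passing are not read as a change of a cell type. Of 9 B and plasma cell markers 0 passed in TGFB KO (limma) and 2 rose in IFNko TGFB1 KO (Cd22 and Jchain). Of 5 dendritic cell markers, 2 rose in TGFB KO (Itgax and Batf3) and 1 in IFNko TGFB1 KO (Itgax). Of 9 listed gamma delta and innate-like T cell markers, 4 were measured (Sox13, Zbtb16, Blk and Maf), and none passed in either comparison. The receptor chain genes of that list (Trdc, Trgc1, Trgc2 and Trgv2) and Il23r were not measured. Maf averaged 979 in INFko TGFB+ and 749 in Balb/c WT, so this list cannot tell whether gamma delta T cells changed. Of 2 tested thymocyte markers Dntt fell in TGFB KO and Cd1d1 in IFNko TGFB1 KO, and Rag1, Rag2, Ptcra and Ccr9 were under the filter. Cd1d1 averaged 1552 in INFko TGFB+ and 1689 in Balb/c WT, where Dntt averaged 34.3 and 42.3. The fall of Cd1d1 is therefore not read as one of thymocytes. Hepatocyte markers showed that the tissue matched its label. Their summed signal was 86830 to 137500 in IFNko TGFB1 KO against 143600 to 175400 in INFko TGFB+. It was 114800 to 135400 in TGFB KO against 165800 to 171200 in Balb/c WT. Of 8 such markers 3 and 1 fell in these comparisons. These counts cannot measure a fall of the brightest markers, since quantile normalization gives the top probe sets nearly the same values on every array. Apoa1 changed by 0 in each comparison. Its deposited signal averaged 25804 in IFNko TGFB1 KO against 33231 in INFko TGFB+, and 25809 in TGFB KO against 37567 in Balb/c WT. When IFNko TGFB1 KO 1 was left out, 3 of 7 B and plasma cell markers (Ms4a1, Cd22 and Jchain) and 2 of 5 dendritic cell markers (Itgax and Batf3) rose in IFNko TGFB1 KO against INFko TGFB+, Cd1d1 fell, no gamma delta marker passed, and 4 of 8 hepatocyte markers fell.

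The genes outside the list whose log2 levels followed the mean of Cd3d, Cd3e and Cd3g most closely over the 12 arrays were Trbv1 (Pearson's r = 0.989), Gimap4 (0.987), Ms4a4b (0.985), Trav9d-3 (0.983), Cst3 (0.979), Clec4n (0.977), Glipr1 (0.977) and Gzmk (0.974). Among the listed genes outside the CD3 chains, r was 0.942 for Cd2, 0.933 for Cd8a, 0.927 for Cd8b1, 0.866 for Cd247, 0.848 for Cd4 and 0.634 for Zap70. With IFNko TGFB1 KO 1 left out, 6 of the 8 genes were again among the first 8, and r was 0.928 for Cd4 and 0.518 for Zap70. These correlations describe arrays that fall into separate groups and carry no test. Gzmk, a granzyme of cytotoxic lymphocytes, rose by 2.41 ± 0.33 in TGFB KO and by 4.01 ± 0.33 in IFNko TGFB1 KO (adjusted p = 0.000402 and 2.36e-05, limma), and Clec4n and Cst3 are expressed by myeloid cells.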

How the data were processed

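Mouse liver RNA was measured on 12 arrays of 45101 probe sets (biotin, one-cycle Affymetrix labelling, per the labels' protocols). The authors deposited 1 linear signal intensity for each probe set and array, scaled, as the values show, to a trimmed mean of 150. The signal algorithm is not given in the sources used here. Here 16 was added, log2 taken and the 12 arrays quantile normalized. Of all probe sets 34958 carry 1 gene symbol, 932 several and 9211 have none listed, and 34754 symbols were matched through the gene identifier to RefSeq (GRCm38.p6). The 64 control probe sets and those with a mean under the 40th percentile (log2 level 5.25) were left out, and each gene kept the probe set with the highest mean.

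Groups were compared over 12760 genes in R 4.3.3 with limma 3.58.1 (lmFit with a mean per group, eBayes, two-sided p, Benjamini-Hochberg, threshold 0.05, 5 contrasts); the other probe sets were read in a second fit over 27022 probe sets. CD8 minus CD4 was tested by exact permutation. The number of arrays, 3 per group, limits the precision, as does the dimness of several probe sets in the groups that keep Tgfb1. The labels number the livers, and the INFko TGFB+ label without a number was given 1. Each array is taken as 1 mouse, which the array titles do not state. The limma p-values set a difference between groups against the spread of arrays within groups, and the permutation p-values against relabelled arrays. Fits were tested on simulated data. The members and lists were chosen with earlier results of these data known. The genes named are the list, Tgfb1 and Ifng, receptor chain segments, up to 5 genes per pathway list and 3 per marker list with the smallest p, and the 8 genes most like the CD3 mean. Lat, Runx3, Zbtb7b and Ncr1 fall outside this rule and were named after their values were seen. The same holds for list genes named for their level, for passing or missing the filter, or for losing a call. Correlations of deviations between arrays of different groups ran from -0.08 to 0.34 where the replicate number was shared, with 4 of 18 pairs over 0.1. For different numbers they ran from -0.23 to 0.20. This does not settle whether the numbers pair the arrays, and the main fits treat the arrays as unpaired. Alternatives were no normalization beyond the authors' scaling, centring on the median, pseudocounts 1 and 64, a 60th percentile filter or none, the mean of probe sets, only the groups compared, array weights, a replicate block and each array left out. The lists, receptor chain probe sets and correlations without IFNko TGFB1 KO 1 were added after seeing the data.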

Additional observations from a re-analysis of the deposited data

Results flagged for a closer look

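The effect of Tgfb1 loss on Cd3g differed between the Ifng backgrounds in a test of the difference itself, with a difference of 2.01 on the log2 scale (IFNko TGFB1 KO against INFko TGFB+, minus TGFB KO against Balb/c WT; adjusted p = 0.0416, limma). The call was lost in 13 of 21 alternatives, among them 9 of 12 left-out arrays, with adjusted p up to 0.141. Its log2 fold changes were 4.14 in IFNko TGFB1 KO against INFko TGFB+ and 2.13 in TGFB KO against Balb/c WT.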

How the results depend on the processing

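Under the 10 alternatives other than left-out arrays, and with each array of a comparison left out, Cd3d, Cd3e, Cd3g, Cd247, Cd8b1 and Cd2 kept their rise in both TGFB comparisons wherever they were tested. With a filter at the 60th percentile 5 of the 9 genes were left, of which 4 were called in TGFB KO and 5 in IFNko TGFB1 KO. The replicate block gave 8, 9, 1, 5 and 0 called genes in the 5 comparisons, the same counts as without it. Whether the shared numbers pair the arrays was not settled. For the difference of effects, the count of 1 became 0 with median centring, a pseudocount of 1, no filter or array weights, 4 with a pseudocount of 64, and 0 to 2 with an array left out. For IFNko TGFB1 KO against TGFB KO, the count of 5 became 2 with a pseudocount of 1 or array weights, and 3 to 5 with an array left out. Cd8a minus Cd4 was -0.92 with a pseudocount of 1, turned to 0.12 with a pseudocount of 64 and ran from -0.364 to 0.078 with an array left out. Cd8b1 minus Cd4 was 1.05 with a pseudocount of 1 (exact permutation p = 0.19), 0.28 with a pseudocount of 64 and 0.97 with the mean of all probe sets (exact permutation p = 0.03 before adjustment), and ran from 0.205 (without TGFB KO 3) to 0.651 with an array left out. The difference of effects of Cd247 turned to 0.087 with the deposited scaling and 0.054 with a pseudocount of 64. With the mean of all probe sets, Zap70 turned to -0.59 in TGFB KO, -0.015 in IFNko TGFB1 KO and -0.069 in INFko TGFB+ against Balb/c WT, where Cd8a turned to 0.056. With an array left out, Cd4 ran from -0.033 to 0.98 in the difference of effects and from -0.126 to 0.885 in IFNko TGFB1 KO against TGFB KO. In INFko TGFB+ against Balb/c WT, Cd3d ran from -0.605 to 0.178, Cd3e from -0.503 to 0.061, Cd8a from -0.45 to 0.247 and Cd8b1 from -0.489 to 0.135, none of them called. The causes were not tested. Dim probe sets in the arrays that keep Tgfb1 limit the fold changes of Cd3e, Cd247, Cd4, Cd8b1 and Cd2, whose mean level there is under the filter.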
